A study of Mus musculus with 5 samples.

Results

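SR proteins and their relatives of the Tra2 type were followed through the splicing of their own transcripts in the hearts of mice made diabetic. Every cassette exon of a gene whose symbol begins with Srsf, or with the older Sfrs and a digit, or is Tra2a or Tra2b, was taken, whether it changed or not. This gave 14 of 6616 events, in 9 genes, and all 14 passed the filter on reads that left 4769 events to test. The files named 9 of the 14 and the lengths of exon and introns named the other 5. Srsf11 held 4 events, Srsf7 and Tra2b held 2 each, and Srsf1, Srsf3, Srsf5 and Srsf9 held 1 each. Sfrs14 and Sfrs18 are older symbols of Sugp2 and Pnisr, which are SR-related proteins and not classical SR proteins, and each has 1 event. The 14 events are not independent, since both Tra2b events are forms of the same exon and 3 Srsf11 events overlap. Srsf2, Srsf4, Srsf6, Srsf10, Srsf12 and Tra2a were not analysed here, since the rule found no event of theirs.

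RNA came from left ventricle of C57BL/6 mice of 12 weeks, with 3 STZ and 2 Control samples. STZ mice were injected with streptozotocin at 70 mg/kg once a day for 5 days from 8 weeks of age. Control mice were injected with citrate buffer, the solvent of the drug, on the same schedule. Streptozotocin is toxic to pancreatic beta cells, which make insulin, so these mice model insulin-deficient diabetes. Nothing in the labels gives blood glucose or says that each sample was a separate animal, and p-values here measure the spread between these samples.

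SR proteins bind short enhancer sequences in exons through RNA recognition motifs and recruit the spliceosome through a domain rich in arginine and serine, which SRPK and CLK kinases phosphorylate. Most genes of the family carry a poison exon, a strongly conserved cassette exon with a stop codon in the reading frame. A transcript that includes it is a substrate of nonsense-mediated decay (NMD), which destroys messages with an early stop, and many SR proteins promote inclusion of their own poison exon to hold their level steady. In mouse heart, loss of Srsf1 in cardiomyocytes is known to alter the splicing of Camk2d, Ldb3 and Tnnt2.

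Of the 14 events, 6 matched, by exon and intron lengths, an exon in which GENCODE M21 places the stop codon of an NMD transcript. They are an upstream exon and a downstream exon of 117 nt in Srsf11, a short form and a long form (397 nt) of an exon of Tra2b, an exon of 460 nt in Srsf7 and an exon of 456 nt in Srsf3. The stretch from the first base of each exon to the stop is printed because it is what makes the exon a poison exon. It was read 5′ to 3′ from the GENCODE transcripts on build GRCm38, and the stop codon is in capitals.
Srsf11 upstream poison exon (chromosome 3, minus strand): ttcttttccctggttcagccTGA
Srsf11 downstream poison exon (chromosome 3, minus strand): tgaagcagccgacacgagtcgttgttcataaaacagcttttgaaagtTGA
Srsf7 460-nt exon (chromosome 17, minus strand): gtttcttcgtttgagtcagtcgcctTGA
Srsf3 456-nt exon (chromosome 17, plus strand): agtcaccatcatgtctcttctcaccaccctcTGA
Tra2b short and long forms (chromosome 16, minus strand): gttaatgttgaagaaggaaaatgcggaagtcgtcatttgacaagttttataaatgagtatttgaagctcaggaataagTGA
The stop was TGA in every one of them. It began at base 21 of the upstream and base 48 of the downstream exon of Srsf11, base 26 of the Srsf7 exon, base 32 of the Srsf3 exon and base 79 of the Tra2b exon. The short and long forms of the Tra2b exon begin at the same base and differ only in their 5′ splice site.

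Inclusion of the upstream poison exon of Srsf11 and of those of Tra2b, Srsf7 and Srsf3 was higher in STZ than in Control. Psi, the authors' estimate for each library of the fraction of transcripts that hold the exon, measures inclusion here. Of the 6 poison exon events 5 were called higher and 0 lower, where called means an adjusted p under 0.05 in limma over all 4769 tested events. The remaining one, the 117-nt exon of Srsf11, was not called. Over the whole family 6 of 14 events were called higher, and among all tested events 4.84% were called higher and 10.1% lower. The median change of Psi was 0.0817 over the 14 events and -0.01 over all tested events. Without STZ B 2 family events were called, without STZ C 4 and without STZ A 5. Over all tested events the calls fell as well, from 713 to 304, 353 and 466. When a Control library is left out, that group holds 1 library and has no spread of its own. The change of Psi at the upstream poison exon of Srsf11 was then 0.633 (without Control A) or 0.663 (without Control B). The number of calls thus depends on single libraries, in the family and over all tested events. The libraries were assigned to STZ and Control from the sizes of both groups alone. Their codes form a separate number series in each group, so a difference of handling between the series and the treatment cannot be told apart.

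**Figure D1:**
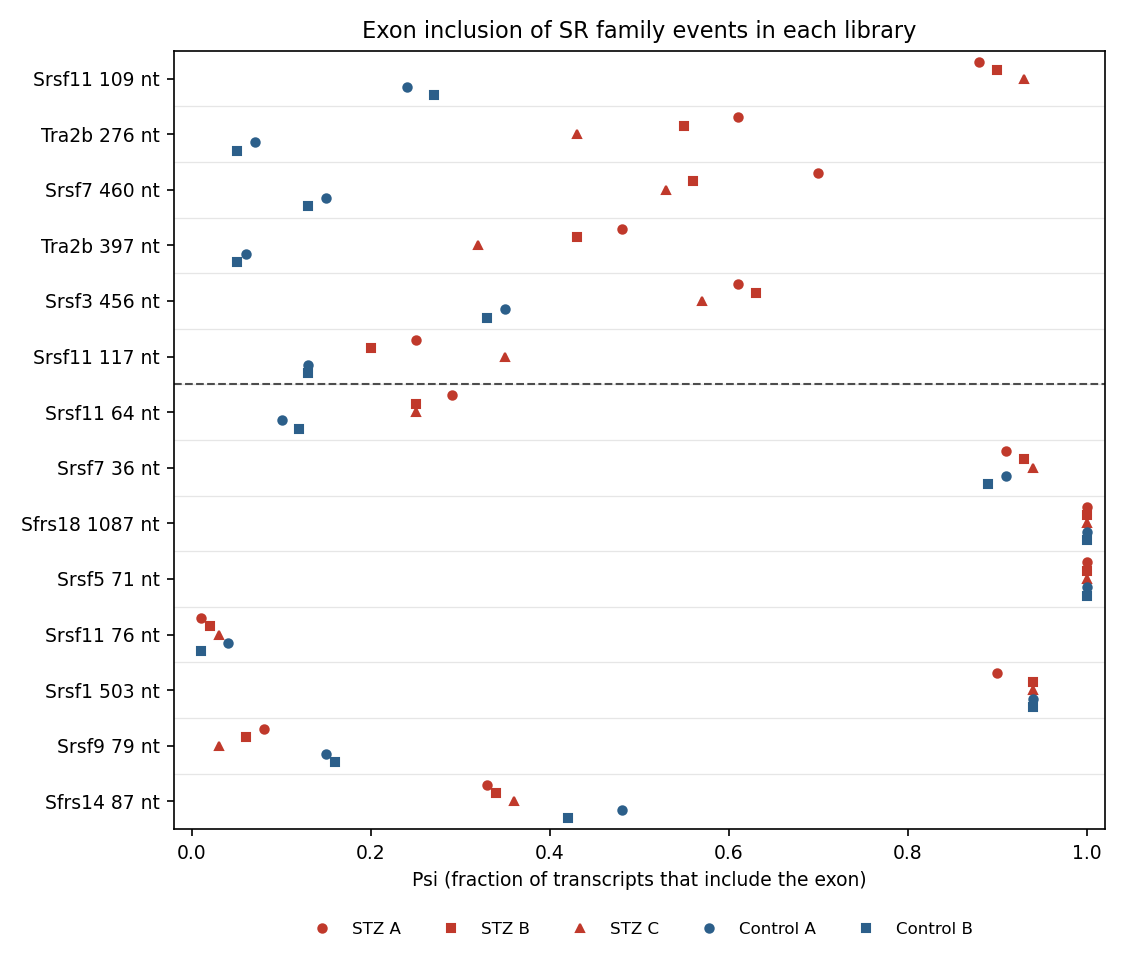
Psi (fraction, horizontal axis) of the 14 SR family events in the 3 STZ libraries (red) and 2 Control libraries (blue). Circles, squares and triangles are libraries A, B and C. Events above the dashed line hold the stop codon of an annotated NMD transcript. The STZ points lie to the right of the Control points in all 6 of these, and the 36-nt exon of Srsf7 and the 71-nt exon of Srsf5 stay near the right edge in every library.

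Srsf11 encodes an SR protein that works with splice site recognition by U2AF. Psi of its upstream poison exon (mm9 chromosome 3, 157687087 to 157687195) was 0.88, 0.90 and 0.93 in STZ A, B and C, against 0.24 and 0.27 in Control A and B. The groups lie far apart and do not overlap. Psi averaged 0.903 ± 0.0252 in STZ (SD, n = 3) and 0.255 ± 0.0212 in Control (SD, n = 2), a change of 3.33 on the logit scale (standard error 0.22, limma adjusted p = 0.00815). The value rests on few reads. Reads that fit the including isoform alone numbered 92, 91 and 92 in STZ and 11 and 13 in Control, and reads that fit the skipping isoform alone numbered 1, 0 and 1 in STZ and 5 and 2 in Control. Between 98.1% and 99.3% of the reads on this event fitted neither isoform. The share of inclusion-only among these informative reads was 99.3% in STZ and 77.7% in Control. In percent this difference was smaller than that of Psi. The raw shares take no account of the lengths of the isoforms, and that of STZ is near its upper limit, so the sizes cannot be compared. The call was lost without Control A (adjusted p = 0.0545).

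The upstream poison exon is read within a larger structure. It lies between an upstream exon of 134 nt and, after an intron of 763 nt, the 117-nt exon, so its Psi compares only transcripts that splice into the 117-nt exon. The isoform that skips it runs from the 134-nt exon into the 117-nt exon, where GENCODE places the stop codon of another NMD transcript. Both isoforms behind this Psi thus hold an annotated early stop, and it does not set transcripts with such a stop against transcripts without one. The 117-nt exon (157686207 to 157686323) is in turn a cassette between the same 134-nt exon and a 110-nt exon. Its own Psi was 0.25, 0.20 and 0.35 in STZ libraries and 0.13 in both Control libraries. The groups did not overlap, but limma gave an adjusted p of 0.125 (change of 0.87 on the logit scale, standard error 0.27). A model of the inclusion-only and exclusion-only reads did call it (73.9% inclusion-only in STZ and 52.3% in Control, adjusted p = 0.00744). Another event joins the 134-nt exon, optionally through a 64-nt exon (157687662 to 157687725), to a single exon of 989 nt that spans the upstream poison exon, the 763-nt intron and the 117-nt exon. Psi of the 64-nt exon was 0.29, 0.25 and 0.25 in STZ libraries, against 0.10 and 0.12 in Control libraries (adjusted p = 0.0209). Its share of inclusion-only reads was 59.0% in STZ and 52.3% in Control, with an adjusted p of 0.648 in the read model. Its limma call was also lost without any 1 library (adjusted p = 0.0506 to 0.0846). The fourth event, a 76-nt exon near the start of the gene (157694955 to 157695030) that GENCODE places before the coding region, had a Psi of 0.01, 0.02 and 0.03 in STZ and 0.04 and 0.01 in Control (adjusted p = 1).

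**Figure D2:**
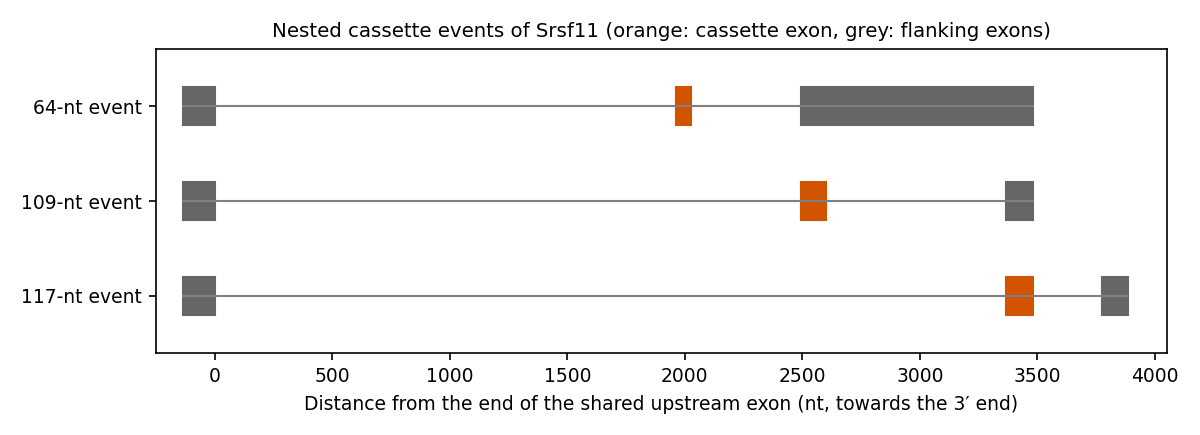
Position of the cassette exon (orange) and flanking exons (grey) in 3 events of Srsf11, in nt from the end of the 134-nt exon that they share. The downstream flank of the upstream poison exon (middle row) is the cassette exon of the 117-nt event, and the 989-nt flank of the 64-nt event covers both.

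Tra2b encodes a splicing activator that binds AGAA-rich enhancers and is known to promote its own poison exon. Psi of the short form (mm9 chromosome 16, 22259059 to 22259334) was 0.61, 0.55 and 0.43 in STZ A, B and C, against 0.07 and 0.05 in Control A and B. STZ C was the lowest of its group and was still far above both Control libraries. Psi averaged 0.530 ± 0.0917 in STZ (SD, n = 3) and 0.060 ± 0.0141 in Control (SD, n = 2), a change of 2.89 on the logit scale (standard error 0.28, adjusted p = 0.0159). Inclusion-only reads numbered 932, 737 and 528 in STZ and 126 and 123 in Control, while exclusion-only reads numbered 79, 47 and 74 in STZ and 212 and 337 in Control. In STZ most informative reads came from the including isoform, and in Control most came from the skipping isoform. The read model called the exon too (adjusted p = 1.56e-08). The 397-nt form, which overlaps the short one, was at 0.48, 0.43 and 0.32 in STZ and 0.06 and 0.05 in Control (adjusted p = 0.0162). The limma calls of both forms were lost without STZ B, Control A or Control B (adjusted p = 0.0669 to 0.0841 for the short form and 0.0671 to 0.0899 for the long form).

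Srsf7 encodes an SR protein that also serves mRNA export. Psi of its 460-nt poison exon (mm9 chromosome 17, 80603962 to 80604421) was 0.70, 0.56 and 0.53 in STZ A, B and C, against 0.15 and 0.13 in Control A and B. As for Tra2b, the highest STZ library was STZ A and the lowest was STZ C. Psi averaged 0.597 ± 0.0907 in STZ (SD, n = 3) and 0.140 ± 0.0141 in Control (SD, n = 2), a change of 2.22 on the logit scale (standard error 0.27, adjusted p = 0.0230). Inclusion-only reads numbered 2119, 1541 and 1373 in STZ and 485 and 486 in Control, and exclusion-only reads 28, 40 and 37 in STZ and 103 and 143 in Control. Inclusion-only reads made up 97.8% of informative reads in STZ and 79.9% in Control, and the read model called it (adjusted p = 2.25e-07). In percent this difference was smaller than that in Psi, but here too the raw shares are near their upper limit and the sizes cannot be compared. The limma call held without STZ A and was lost without any other library (adjusted p = 0.0612 to 0.119). A second cassette exon of the same gene, a coding exon of 36 nt nearer the 3′ end (80601509 to 80601544), had a Psi of 0.91, 0.93 and 0.94 in STZ and 0.91 and 0.89 in Control (adjusted p = 0.274). The groups overlapped there.

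Srsf3 encodes a small SR protein that also takes part in mRNA export and 3′ end formation. Psi of its 456-nt poison exon (mm9 chromosome 17, 29176399 to 29176854) was 0.61, 0.63 and 0.57 in STZ A, B and C, against 0.35 and 0.33 in Control A and B. The STZ libraries lay closer together here than at Tra2b or Srsf7. Psi averaged 0.603 ± 0.0306 in STZ (SD, n = 3) and 0.340 ± 0.0141 in Control (SD, n = 2), a change of 1.08 on the logit scale (standard error 0.09, adjusted p = 0.0126). Inclusion-only reads numbered 2661, 2928 and 2092 in STZ and 968 and 1064 in Control, and exclusion-only reads 144, 137 and 125 in STZ and 150 and 184 in Control. The read model called it (94.9% inclusion-only in STZ and 85.9% in Control, adjusted p = 2.33e-06). Reads that fitted neither isoform made up 97.2% to 98% of those on the 117-nt event of Srsf11. They made up 59% to 77.1% at the short and 61.3% to 75.6% at the long form of Tra2b, and 44.7% to 65% at the Srsf7 exon. At the Srsf3 exon they made up 52.8% to 84.0%. At the exons of Tra2b, Srsf7 and Srsf3 this share was higher in each Control library than in any STZ library. Psi of the Srsf3 exon in Control was the highest of the poison exons. The limma call was lost without Control A (adjusted p = 0.0669) and without Control B (0.0711).

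In STZ the poison exons ranked, by mean Psi, the upstream exon of Srsf11, Srsf3, Srsf7, the short and then the long form of Tra2b, and the 117-nt exon of Srsf11. Each Psi is a share of the transcripts that fit its own event and not of all transcripts of the gene. That of the upstream exon of Srsf11 covers only transcripts that splice into the 117-nt exon, so its rank is not like the others. From Srsf3 downwards the ranges of neighbouring exons overlapped, but that of Srsf3 lay above those of the long form of Tra2b and of the 117-nt exon. Within each STZ library Srsf7 was above the short form of Tra2b, and the short form above the long form. In Control the order was Srsf3 (0.340), the upstream exon of Srsf11 (0.255), Srsf7 (0.140), the 117-nt exon of Srsf11 (0.130), and the short (0.060) and long (0.055) forms of Tra2b. Libraries overlapped there between Srsf7 and the 117-nt exon and between both forms of Tra2b. In the authors' deposited tables, 5 of the 14 family events reached a difference of 0.20 in Psi together with a Bayes factor of 10 in each of the 6 comparisons of single libraries, always higher in STZ. These were the 5 called poison exon events. Of the 6331 events compared 6 times, 1.07% met this rule with higher and 2.15% with lower Psi in STZ.

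**Figure D3:**
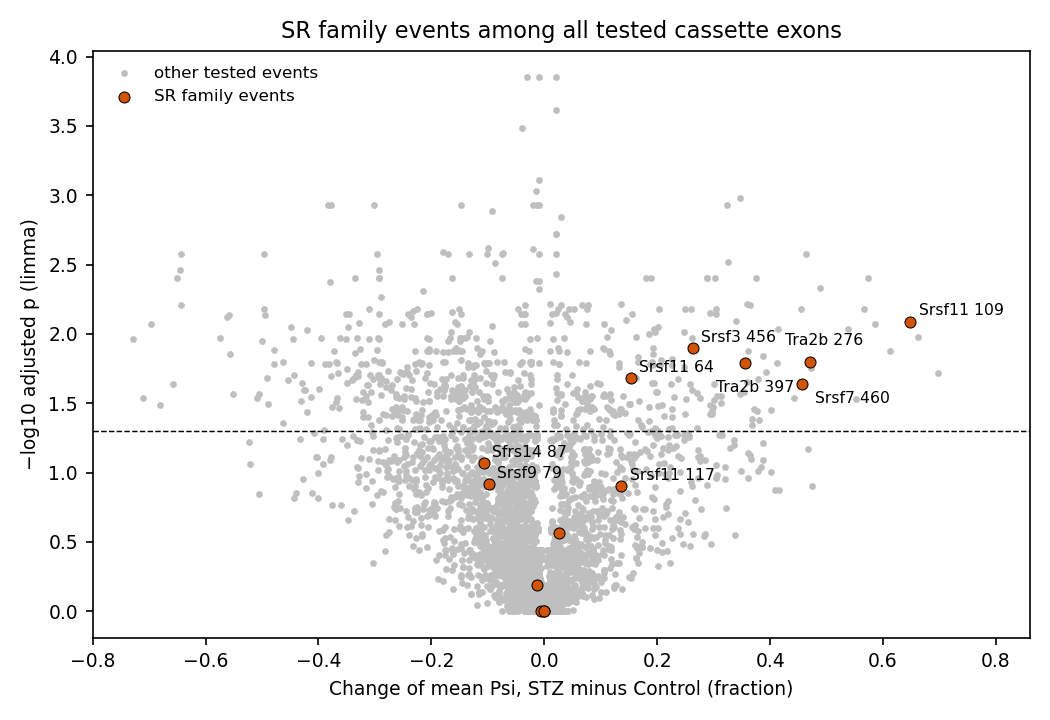
Change of mean Psi, STZ minus Control (horizontal axis, fraction), and −log10 of the limma adjusted p (vertical axis) for 4769 tested events, with the 14 SR family events in orange. The dashed line marks an adjusted p of 0.05. The 6 family events above the line all lie on the right, and the upstream poison exon of Srsf11 has the largest change among them, 0.648.

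Values of Psi were equal or close in both groups at exons of Srsf5, Sfrs18 and Srsf1. The 71-nt coding exon of Srsf5, first described as an insulin-induced gene of liver cells (mm9 chromosome 12, 82048298 to 82048368), had a Psi of 1.00 in every library. So did the 1087-nt exon of Sfrs18 (chromosome 4, 21800733 to 21801819). A 503-nt exon of Srsf1, the founding SR protein (chromosome 11, 87862914 to 87863416), was at 0.90, 0.94 and 0.94 in STZ and 0.94 in both Control libraries (adjusted p = 0.652). GENCODE holds no exon of these lengths in Srsf1, so its place in the transcript was not assigned and whether it holds a stop codon is not known here.

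Values at Srsf9 and Sfrs14 were lower in STZ without passing the threshold. The 79-nt exon of Srsf9, a coding exon in GENCODE (mm9 chromosome 5, 115781470 to 115781548), had a Psi of 0.08, 0.06 and 0.03 in STZ and 0.15 and 0.16 in Control. The groups did not overlap, but limma gave an adjusted p of 0.121. Its informative reads were 23.3%, 17.4% and 6.85% inclusion-only in STZ and 39.3% and 42.8% in Control, which the read model called (adjusted p = 0.000959). The 87-nt exon of Sfrs14 (chromosome 8, 72785130 to 72785216) had a Psi of 0.33, 0.34 and 0.36 in STZ and 0.48 and 0.42 in Control (adjusted p = 0.0854). Its shares of inclusion-only reads, 58.2% in STZ and 64.2% in Control, were not called (adjusted p = 0.454). Over the family the groups of Psi did not overlap in 7 events with higher and 2 with lower values in STZ, against 14.1% and 28.8% of all tested events. The read model called 6 family events higher, all of them poison exon events, and 1 lower, against 8.85% and 15.8% of all tested events.

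Psi is a ratio, so the reads of each isoform were also set against the library, as reads per 1000000 reads on events (RPM). Inclusion-only reads of the poison exons rose in STZ, but not theirs alone. At the 36-nt exon of Srsf7 they averaged 57.2 RPM in STZ and 14.3 in Control (limma adjusted p = 0.00343). At the 71-nt exon of Srsf5 they averaged 331 RPM in STZ and 144 in Control (adjusted p = 0.00491). The exon of Sfrs18 and the 64-nt exon of Srsf11 were called higher as well, and the exons of Srsf1 and Srsf9 lower. Exclusion-only reads of the poison exons had lower values in STZ at Tra2b and Srsf7 and slightly higher values at Srsf3. At the short form of Tra2b they passed the test with neither RPM nor median ratio scaling. At the long form, Srsf7 and Srsf3 whether they passed depended on the scaling. At the short form of the Tra2b exon, inclusion-only reads were 62.5, 50.7 and 41.6 RPM in STZ and 7.34 and 5.87 in Control, a change of 2.86 on the log2(value + 0.5) scale (standard error 0.21, limma adjusted p = 0.00354). Exclusion-only reads at the same exon were 5.30, 3.23 and 5.83 RPM in STZ and 12.4 and 16.1 in Control (adjusted p = 0.0674). At the long form exclusion-only reads fell by 1.25 on the log2 scale (adjusted p = 0.0429), a call lost without any 1 library (0.0754 to 0.162) and under median ratio scaling (0.0518). At the short form the isoforms differed in opposite directions, and the groups overlapped in neither.

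At the 460-nt exon of Srsf7, inclusion-only reads were 142, 106 and 108 RPM in STZ and 28.3 and 23.2 in Control (log2 change 2.18, standard error 0.18, adjusted p = 0.00389). Exclusion-only reads there were 1.88, 2.75 and 2.92 RPM in STZ and 6.00 and 6.82 in Control (log2 change -1.21, standard error 0.20, adjusted p = 0.0494). That fall just passed the threshold, and it was lost without STZ B, STZ C, Control A or Control B (adjusted p = 0.107 to 0.213) and under scaling by the median ratio (0.0800), and with a pseudocount of 0.1 (0.0538). At the 456-nt exon of Srsf3, inclusion-only reads were 178, 201 and 165 RPM in STZ and 56.4 and 50.8 in Control (log2 change 1.75, standard error 0.12, adjusted p = 0.00343), and exclusion-only reads were 9.66, 9.43 and 9.85 in STZ and 8.74 and 8.78 in Control (log2 change 0.13, adjusted p = 0.147). The groups of these exclusion-only reads did not overlap, and under median ratio scaling they were called higher in STZ (log2 change 0.32, adjusted p = 0.0374). At the upstream poison exon of Srsf11, inclusion-only reads were 6.17, 6.26 and 7.25 RPM in STZ and 0.641 and 0.620 in Control (log2 change 2.64, standard error 0.15, adjusted p = 0.00343). The inclusion-only calls of these 4 exons and of the long form of Tra2b held without any 1 library, with adjusted p-values up to 0.0479. At the 117-nt exon of Srsf11 they were 6.97, 3.99 and 6.93 RPM in STZ and 1.81 and 2.43 in Control (adjusted p = 0.0361), a call lost without STZ A, STZ C, Control A or Control B (0.0703 to 0.180). In all, 10 family events were called higher and 2 lower in inclusion-only reads, and 2 higher and 2 lower in exclusion-only reads. Among the 11 family events with at least 10 exclusion-only reads on average, median ratio scaling gave 3 higher and 0 lower in place of 2 and 2. The 3 were the 456-nt exon of Srsf3 and the 64-nt and 76-nt exons of Srsf11. Under that scaling 284 of all 4769 tested events were called higher and 179 lower in exclusion-only reads. With RPM, 13.6% of all tested events were called higher and 24% lower in inclusion-only reads, and 4.57% higher and 4.68% lower in exclusion-only reads.

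**Figure D4:**
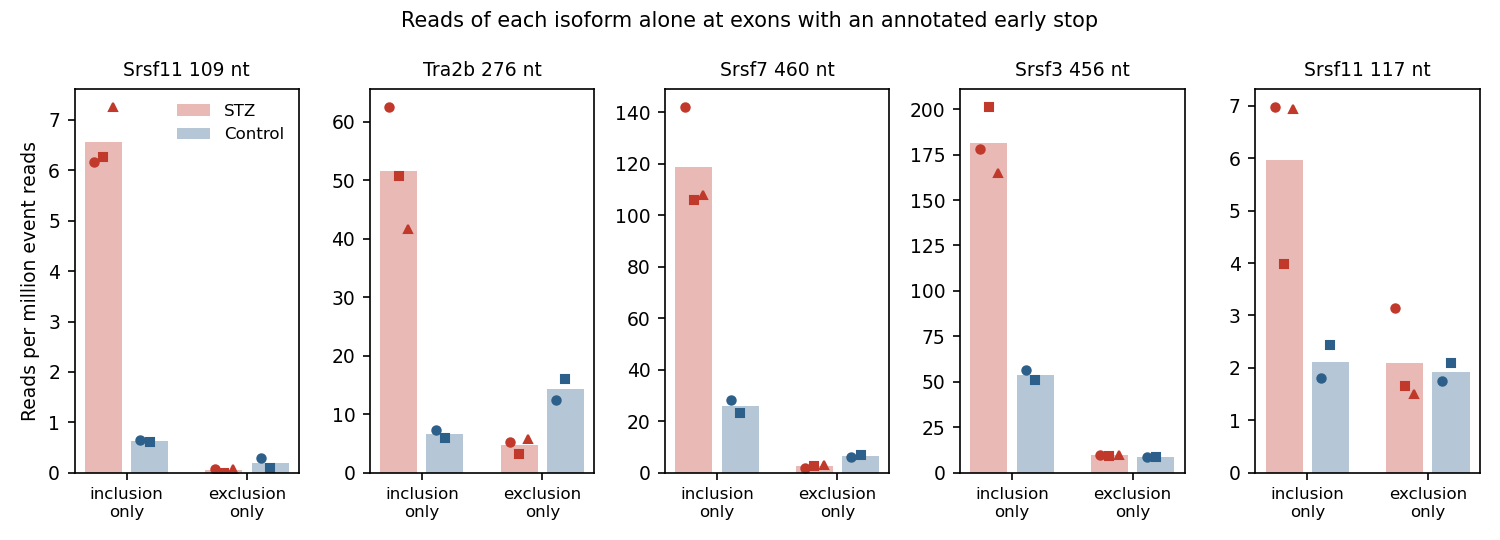
Inclusion-only and exclusion-only RPM at 5 exons with an annotated early stop, in STZ (red, left bar of each pair) and Control (blue). Bars are means, and points are libraries A (circle), B (square) and C (triangle). Each panel has its own vertical axis. In the panels of Tra2b and Srsf7 the STZ bar is the higher of the pair for inclusion-only and the lower for exclusion-only reads.

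Total reads on the events differed between genes of the family. All reads on the 71-nt event of Srsf5 came to 682, 624 and 649 RPM in STZ and 289 and 274 in Control (log2 change 1.21, standard error 0.11, adjusted p = 0.000257), while its Psi stayed at 1.00. Reads on the Srsf7 events were higher too, at 620, 511 and 501 RPM in STZ and 264 and 255 in Control for the 36-nt event (log2 change 1.06, adjusted p = 0.000826). Reads on the 4 Srsf11 events were higher by 0.58 to 0.76 on the log2 scale (adjusted p = 0.00546 to 0.0119), with calls lost for all 4 without Control B (0.0582 to 0.119) and for the 76-nt event without Control A as well (0.0890). Those on the Srsf9 event were lower, at 18.3, 20.2 and 25.8 RPM in STZ and 50.0 and 45.8 in Control (log2 change -1.15, adjusted p = 0.00182).

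Reads on the events of Tra2b (176 ± 22.9 RPM in STZ and 147 ± 0.0219 in Control, adjusted p = 0.176) and Srsf3 (449 ± 37.6 in STZ and 388 ± 14.4 in Control, adjusted p = 0.198) did not pass. Reads on the Srsf1 event were lower in STZ, at 266 ± 25.2 against 375 ± 4.53 RPM in Control (adjusted p = 0.0142). That call was lost without STZ B (0.0533), Control A (0.102) or Control B (0.115) and under median ratio scaling (0.0745). In all, 7 of 14 family events were called higher and 2 lower in all reads with RPM, against 19.4% and 34.3% of tested events. With median ratio scaling 10 were called higher and 1 lower, against 1279 higher and 1279 lower of the 4769 tested events. The 7 lie in Srsf5, Srsf7 and Srsf11 alone. Reads were equal in every library at both forms of the Tra2b exon, and at the upstream poison exon and the 64-nt exon of Srsf11. Such events do not count separately. Counts and shares depend on the scaling, since the median log2 change of all tested events was -0.2 with RPM and -0.01 with median ratio scaling. Of all calls on all reads 36.1% were higher in STZ with RPM and 50% with median ratio scaling, under which the Tra2b and Srsf3 events were called higher as well (adjusted p = 0.0405 and 0.0349). The same share was 36.1% with RPM and 48.2% with median ratio scaling for inclusion-only reads, and 49.4% and 61.3% for exclusion-only reads. These reads cover cassette events alone and are not the level of a whole gene. In whole tissue, fewer cells of a type and less RNA per cell cannot be told apart.

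**Figure D5:**
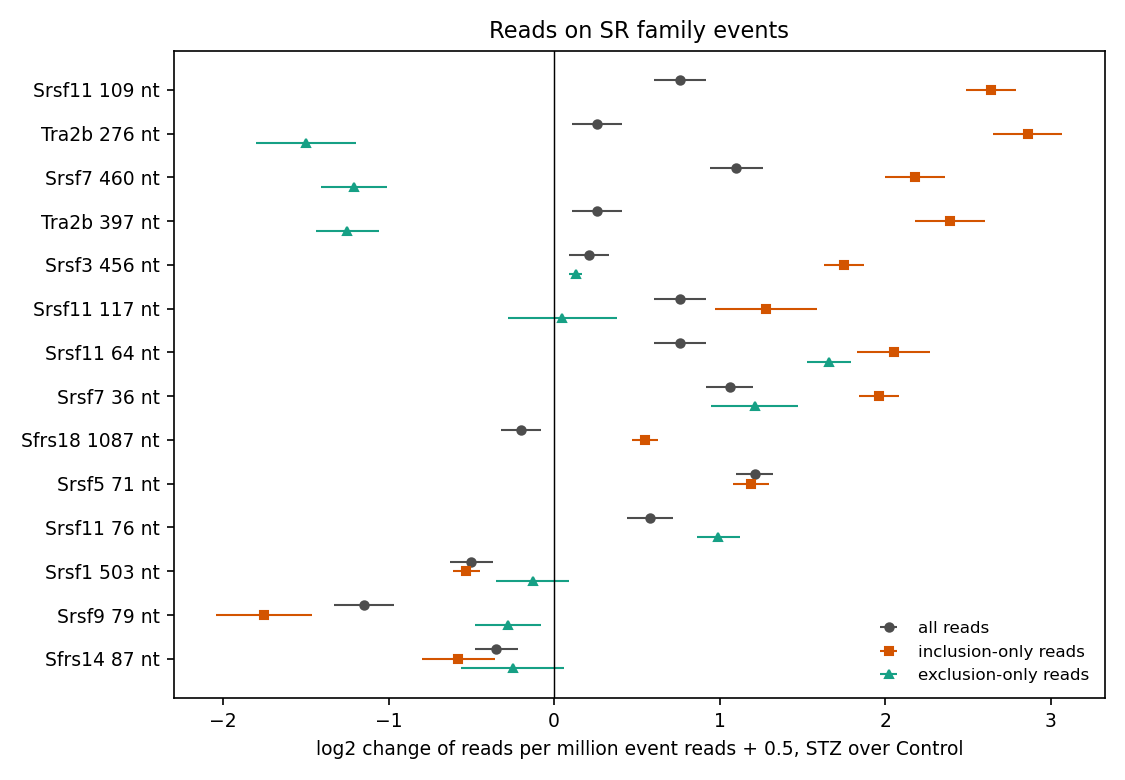
log2 change of RPM plus 0.5, STZ over Control, with its standard error, for all reads, inclusion-only and exclusion-only reads of each SR family event. Isoform values are drawn where the mean over libraries was at least 10 reads. Inclusion-only and exclusion-only points lie on opposite sides of 0 for Tra2b and the 460-nt exon of Srsf7, and on the same side for the 36-nt exon of Srsf7 and the 64-nt exon of Srsf11.

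Exons of the same annotated kind in other genes give the setting for these values. Of 4769 tested exons 292 held the stop codon of an annotated NMD transcript, 6 of them in the SR family. Among the 286 in other genes 30 were called higher and 19 lower in STZ (10.5% and 6.64%), with a median change of Psi of 0.00167. Of the matched exons without such a stop, 4.35% were called higher and 10.5% lower, with a median change of -0.0117. Exons with such a stop in other genes were thus also called higher more often, and lower less often, than the other matched exons. Among the 6 of the family 5 were higher and 0 lower, with a median change of 0.406. Among the 7 family exons that matched the annotation without such a stop, 1 was called higher, the 64-nt exon of Srsf11, and the median change was 0. The 6 lie in only 4 genes and overlap within Tra2b and Srsf11, so these counts are given without a test.

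The letters AGAA, the core of the enhancer that Tra2b binds, were counted on the sense strand, overlaps included, in the 4361 tested exons that matched a GENCODE transcript. The short form of the Tra2b exon held 12 of them, or 4.35 per 100 nt, a density that 1.49% of the matched exons reached. The long form held 15. The median of the matched exons was 0.538 per 100 nt, and 54.3% held at least 1. The 460-nt exon of Srsf7 held 5 (1.09 per 100 nt), the 117-nt exon of Srsf11 held 1, and the exons of Srsf3 and the upstream exon of Srsf11 held 0. Family exons whose Psi was not called held them too. The exon of Sfrs18 held 27 (2.48 per 100 nt), and the 36-nt exon of Srsf7 held 1 (2.78 per 100 nt). The 76-nt exon of Srsf11 held 1 (1.32 per 100 nt), and the exons of Srsf5, Srsf9 and Sfrs14 held 0. A match is a string of letters and not a shown binding site.

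Among other factors of the same pathway, the list of SR-related and splice site proteins held called exons in both directions. Of its 23 tested events in 14 genes 5 were called higher and 7 lower in STZ, with a median change of Psi of -0.0517, against 4.84% and 10.1% of all tested events and their median of -0.01. Psi was higher at exons of Rbm39, an SR-like coactivator (73 nt, 0.757 in STZ and 0.355 in Control; 239 nt, 0.163 in STZ and 0.020 in Control; 72 nt, 0.227 in STZ and 0.115 in Control), Luc7l, a U1-associated protein (71 nt, 0.957 in STZ and 0.745 in Control), and U2af1l4, a paralog of a splice site subunit (20 nt, 0.917 in STZ and 0.805 in Control). It was lower at exons of Thrap3 (88 nt, 0.403 in STZ and 0.715 in Control), Bclaf1 (162 nt, 0.103 in STZ and 0.315 in Control), Acin1 (120 nt, 0.263 in STZ and 0.410 in Control), Snrnp70, the U1 70K protein (1360 nt, 0.193 in STZ and 0.330 in Control), and U2af1l4 (134 nt, 0.670 in STZ and 0.985 in Control). Limma adjusted p-values of these 10 exons ran from 0.0105 to 0.0391. The call of the 72-nt exon of Rbm39 held without any 1 library. That of its 239-nt exon was lost without any 1 STZ library (adjusted p = 0.102 to 0.119), and those of the other 8 were lost when either Control library was left out (0.0589 to 0.168), and each of these also without at least 1 STZ library. The read model did not call the 73-nt exon of Rbm39 (adjusted p = 0.113) or that of Acin1 (0.0774). With Psi clipped at 0.05 the 73-nt exon of Rbm39 (0.0518), the 134-nt exon of U2af1l4 (0.0801) and the exon of Snrnp70 (0.0520) were lost, and with Psi untransformed that of U2af1l4 was lost too (0.119).

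SR protein kinases, phosphatases and import factors had 0 events called higher and 1 lower of 13, in 9 genes, with a median change of 0, against 4.84% and 10.1% of all tested events. With 13 events, 1 call is near that background. The call was a 105-nt exon of Ppp1cc, a catalytic subunit of protein phosphatase 1, with a Psi of 0.91, 0.89 and 0.91 in STZ and 0.99 in both Control libraries (adjusted p = 0.00309). The 91-nt exon of Clk4, an SR kinase, was at 0.61, 0.73 and 0.66 in STZ and 0.44 and 0.43 in Control, just outside the threshold (adjusted p = 0.0539). The 91-nt exon of Clk1, whose skipping removes kinase activity, was at 0.31, 0.39 and 0.42 in STZ and 0.52 and 0.41 in Control (adjusted p = 0.365), with overlapping groups. Genes of NMD and the exon junction complex had 0 events higher and 1 lower of 6, in 5 genes, with a median change of -0.0425, and 6 events are too few to set against those shares. That one, a 59-nt exon of Magohb, an exon junction subunit, was at 0.94, 0.90 and 0.93 in STZ and 0.99 and 1.00 in Control (adjusted p = 0.0159), but 100% of its informative reads were inclusion-only in both groups, and the call was lost in the read model (adjusted p = 1) and without STZ C, Control A or Control B (up to 0.0870). The lists together held 14 calls in 42 events, against 713 in all 4769 tested events. Most of the 14, 5 higher and 7 lower, were in the list of SR-related and splice site proteins.

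The exons of other genes nearest in Psi over the 5 libraries, by root mean square difference, were sought for 3 of the exons. For the upstream poison exon of Srsf11 they were a 202-nt exon of Mtf2 (0.0618), a 171-nt exon of Ttc17 (0.0701) and a 251-nt exon of Wdcp (0.0866). For the short form of the Tra2b exon the nearest was a 150-nt exon of Picalm (0.0329), with a mean Psi of 0.543 in STZ and 0.070 in Control, and a 95-nt exon of Mbnl2 was the third (0.0600). For the 460-nt exon of Srsf7 the nearest was a 192-nt exon of Rnf207 (0.0504), and the same Picalm exon was the third (0.0616). Over 5 libraries in 2 groups this measure cannot separate likeness from an equal difference between the groups.

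Reads of all classes on events numbered 12692236 to 14913419 in STZ and 17154734 to 20963751 in Control, and the median tested event had 94 to 118 informative reads in STZ and 154 to 192 in Control. Every family event had at least 15 informative reads in each library. Of the marker lists, events of 5 of 10 cardiomyocyte genes, among them Ttn and Tnnt2, took 37900 to 48800 RPM in STZ and 42600 to 44000 in Control. Events of 2 of 5 endothelial genes took 3300 to 5670 in STZ and 1720 to 1950 in Control, those of 2 of 5 smooth muscle genes 759 to 963 in STZ and 2620 to 2750 in Control, and those of 2 of 5 leukocyte genes 58.5 to 132 in STZ and 70.6 to 82.3 in Control. No gene of the fibroblast list had an event. Endothelial and smooth muscle reads therefore moved with the groups, and their part in the values of the SR family was not tested.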

How the data were processed

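The submitters' processing notes name CASAVA 1.8.2, TopHat and the mm9 build. The 6 deposited tables are comparisons of single libraries with MISO, per the file headers; the version of MISO is not given in the sources used here. Psi was deposited by the authors as a fraction, rounded to 2 decimals. The authors' Bayes factor is a ratio, the evidence for a difference in Psi over the evidence against it. Read classes are raw counts in the authors' tables, and 36 other columns of single libraries, interval bounds included, were not used. Library codes match no sample title: the codes on the side of 2 were taken as Control and those on the side of 3 as STZ, lettered by number.

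Events without a symbol in the file were named from GENCODE M21 (GRCm38) by exon and intron lengths, which gave the file's own gene for 97.7% of 3311 events. Coordinates stay in mm9. Events with at least 10 informative reads in every library were tested. Psi was clipped to 0.01 and 0.99, put on the logit scale and fitted in limma 3.58.1 (R 4.3.3) with a prior variance that follows reads, two-sided, with Benjamini-Hochberg adjustment over all tested events. The read model was quasi-binomial with moderated dispersion of at least 1. Reads per 1000000 event reads (RPM) were fitted in limma as log2(value + 0.5), a measure added after the data were seen. Fits were tested on simulated data. The members, lists and tests were chosen with earlier results of these data known. Psi was printed in every library for an exon each of Srsf11 (upstream poison exon), Srsf7 (460 nt) and Tra2b (short form), for called family events and for the event with most informative reads of each other family gene, and called related exons with a change of at least 0.10 (up to 5 in each direction in a list) and the exons nearest in Psi were named. The 117-nt and 76-nt exons of Srsf11, the 36-nt exon of Srsf7 and the exons of Ppp1cc, Magohb, Clk1 and Clk4 were named after their values were seen.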

Additional observations from a re-analysis of the deposited data

How the results depend on the processing

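The number of SR family events called higher in STZ stayed at 4 to 6 with another read filter, clipping, scale or variance prior, in the read model and by the authors' rule. With only the symbols in the file it was 3, since fewer events then count. With at least 20 informative reads the upstream poison exon and the 64-nt exon of Srsf11 were not tested. Leaving out 1 library gave 0 to 5. Events called lower numbered 1, that of Srsf9, with Psi untransformed and in the read model, and 0 otherwise. All tested events called numbered 1174 in the read model, 204 by the authors' rule and 282 to 466 without 1 library. Related exons called numbered 4 by the authors' rule and 3 to 7 without 1 library. Without 1 library the change of Psi was 0.633 to 0.663 at the upstream poison exon of Srsf11, 0.405 to 0.490 at that of Srsf7 and 0.43 to 0.52 at the short form of Tra2b, always higher in STZ. A lone Control was assumed to vary like the STZ libraries. Values near 0 turned sign at the Srsf11 76-nt exon (change of Psi -0.02 to 0.01 without 1 library, positive without Control A), in all reads of Sfrs18 with median ratio scaling (0.00233 on the log2 scale) and in exclusion-only reads of the Srsf11 117-nt exon (-0.222 to 0.213 without 1 library; -0.222 without STZ A, -0.0541 without Control A). The cause was not tested. No paired analysis was possible because the columns carry no replicate number. Informative reads were fewest, down to 15 in a library, at the upstream poison exon and the 64-nt exon of Srsf11.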
